A study of Mus musculus with 16 samples.

Results

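The genes described here are 10 GTPases that interferon-gamma switches on, picked by symbol from the 46078 genes of a count table of mouse ileum mucosa. 5 of them are guanylate-binding proteins (Gbp2, Gbp3, Gbp6, Gbp7 and Gbp9) and 5 are immunity-related GTPases (Igtp, Irgm1, Irgm2, Iigp1 and Tgtp2). All 10 were among the 14822 genes with enough counts to be tested over all libraries. No member passed the adjusted test between the genotypes, in both sexes together or in either sex. In males every member had a lower estimate in mice without Schlafen 3 (Slfn3KO) than in wildtype (WT) mice. Without WT libraries 3 and 4, whose sex label is in doubt, 2 of the 10 male estimates were positive. Irgm1, which protects host membranes from the other GTPases, had 33.4 to 69.6 CPM (counts scaled to library size) in Slfn3KO males against 75.8 to 112 in WT males. Of the 14124 genes tested in males, 1.23% likewise had all Slfn3KO libraries below all WT libraries. Both ends of the WT range of Irgm1 were libraries with a doubtful label. Female WT 4, whose sex label is also in doubt, had 52.2 CPM, inside the range of the Slfn3KO males. In females 8 of the 10 estimates had the opposite sign, which were 3 of 10 without female Slfn3KO 3, 4 of 10 without female WT 2 and 10 of 10 without the WT libraries whose sex label is in doubt. The members varied far more between mice of 1 group than most genes did, and they varied together.

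RNA was sequenced from the ileum mucosa of 16 mice on the C57Bl/6 strain background, with 4 libraries in each of the groups female WT, female Slfn3KO, male WT and male Slfn3KO. The WT mice were littermates of the Slfn3KO mice, and the labels name no other allele or agent and give an age of 8 weeks, where the methods of the study give an older range. The study asked whether loss of Slfn3, a gene tied to the maturation of intestinal epithelium, changes RNA in the mucosa and does so differently in the sexes. Group names are those of the labels throughout.

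Interferon-gamma comes mainly from T cells and natural killer (NK) cells, and it binds a receptor made of Ifngr1 and Ifngr2 whose kinases Jak1 and Jak2 pass the signal on. Many target genes carry gamma-activated sequences (GAS) or interferon-stimulated response elements (ISRE) next to their start sites, and Irf1, itself induced by interferon-gamma, binds the latter. Guanylate-binding proteins are large dynamin-like GTPases that coat bacteria and the vacuoles of parasites. Of the immunity-related GTPases, Irgm1, Irgm2 and Igtp (also called Irgm3) are regulators that sit on host membranes, and Iigp1 and Tgtp2 are effectors that load onto the vacuoles of pathogens. In the ileum, Irgm1 is known for its part in keeping Paneth cells and their granules in order.

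The promoters are shown because the genes are grouped by the signal that induces them. RefSeq promoter windows on build GRCm38.p6 were used for 7 of the 10 members. Each ran from 250 bases before to 50 bases after a start site. Gbp6 and Gbp9 had no window, and Iigp1 was left out and its promoter was not examined. In capitals below are the letters GAAANNGAAA or, on the other strand, TTTCNNTTTC, which are the core of an ISRE, and TTCNNNGAA, the core of a GAS, which reads the same on both strands. The printed 120 bases run 5′ to 3′ on the strand of the gene. They are chr3:142620553-142620672 on the plus strand for Gbp2, chr3:142559934-142560053 on the plus strand for Gbp3, chr3:142530226-142530345 on the plus strand for Gbp7, chr11:48871411-48871530 on the minus strand for Irgm1, chr11:58199446-58199565 on the plus strand for Igtp, chr11:58214867-58214986 on the plus strand for Irgm2 and chr11:49064203-49064322 on the minus strand for Tgtp2.
Gbp2: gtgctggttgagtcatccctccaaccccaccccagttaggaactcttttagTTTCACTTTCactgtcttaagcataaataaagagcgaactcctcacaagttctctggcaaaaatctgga
Gbp3: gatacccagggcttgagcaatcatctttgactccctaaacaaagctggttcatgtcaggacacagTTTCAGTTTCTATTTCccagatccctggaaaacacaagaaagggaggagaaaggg
Gbp7: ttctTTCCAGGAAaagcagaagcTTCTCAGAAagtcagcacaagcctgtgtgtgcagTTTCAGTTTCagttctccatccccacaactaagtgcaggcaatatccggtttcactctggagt
Irgm1: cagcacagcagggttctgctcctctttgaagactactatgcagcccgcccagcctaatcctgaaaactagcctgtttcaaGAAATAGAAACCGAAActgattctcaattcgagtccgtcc
Igtp: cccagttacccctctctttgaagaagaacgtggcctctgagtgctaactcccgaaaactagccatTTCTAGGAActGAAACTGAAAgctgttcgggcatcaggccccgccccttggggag
Irgm2: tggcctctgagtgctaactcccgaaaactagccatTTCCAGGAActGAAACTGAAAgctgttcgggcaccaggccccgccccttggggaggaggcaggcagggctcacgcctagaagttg
Tgtp2: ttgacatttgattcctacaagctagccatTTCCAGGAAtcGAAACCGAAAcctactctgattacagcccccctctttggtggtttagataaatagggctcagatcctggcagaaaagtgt

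All 7 windows held the ISRE letters, with the first base between 24 and 70 bases before the start, whereas 3.44% of the 32851 promoter windows of all genes held them. The GAS letters lay in 4 of the 7 (Gbp7, Igtp, Irgm2 and Tgtp2), against 8.3% of all windows, and 0.454% of all windows held both. In Igtp, Irgm2 and Tgtp2 the GAS letters ended 2 bases before the ISRE letters began, and in Gbp7 a gap of 25 bases lay between them. The printed stretches of Igtp and Irgm2 shared a run of 38 identical bases, and those of Irgm2 and Tgtp2 a run of 17. The window of Irgm2 lies inside the annotated gene, which begins at base 58199618. The bases after its RefSeq start were not found as an unbroken stretch in an annotated transcript of Irgm2. In Gbp3 and Irgm1 there were 2 overlapping matches to the ISRE letters each, and a further Gbp3 start site in RefSeq had none in its window. A match is a description of letters and not of a bound site.

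**Figure D1:**
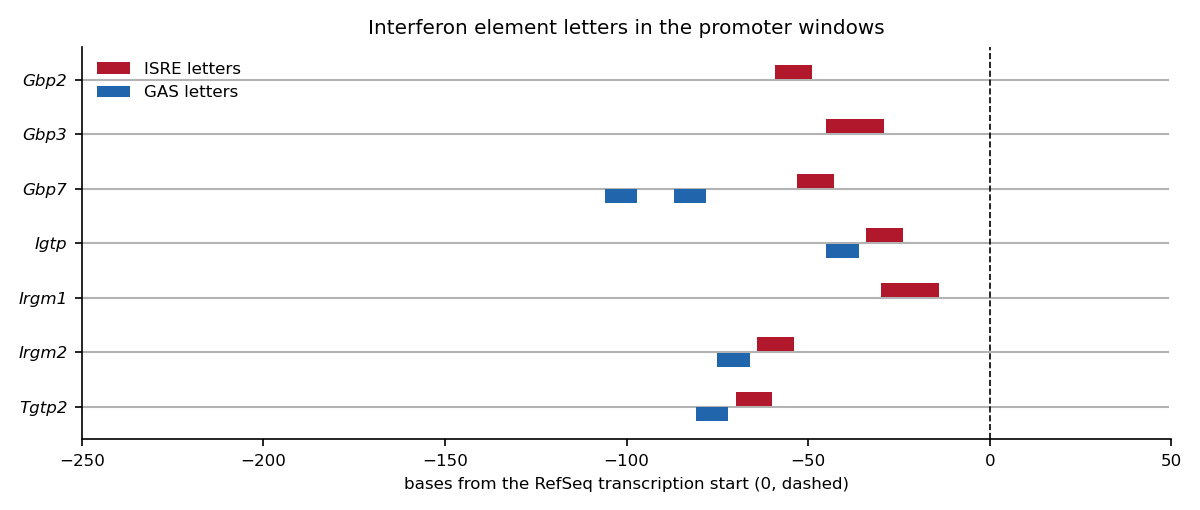
Positions of the ISRE letters (red, above each line) and GAS letters (blue, below it) in the promoter windows of 7 members, in bases from the RefSeq start site (x axis, dashed line at 0). The ISRE letters lay within 70 bases before the start in all 7, and the GAS letters lay just before them in Igtp, Irgm2 and Tgtp2.

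Among other genes of the pathway, the ISRE letters were in the windows of 6 of 9 other interferon-induced GTPases, of 10 of 16 genes of the antiviral type I interferon response, and of 3 of 21 other target genes of interferon-gamma (B2m, Cxcl10 and Psme1). Over all genes with a window, 3.99% had them in at least 1 window.

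Between 20823279 and 30813117 reads per library were counted on genes, so that 3 counts, used as a floor, corresponded to 0.0974 to 0.144 CPM before scaling. Floors take account of counting error alone, because no molecular identifiers were used. The deleted gene, Slfn3, had 0 to 2 counts in the 8 Slfn3KO libraries and 0 to 19 in the 8 WT libraries, with 0 in male WT 4, which is too few to check the genotype labels mouse by mouse. Transcripts of the sex chromosomes went against the labels of WT libraries 3 and 4 in both sexes. Xist, which marks the inactive X chromosome, had 0.124 and 0 CPM in the libraries labelled female WT 3 and female WT 4 and 437 and 401 CPM in those labelled male WT 3 and male WT 4, and 4 genes of the Y chromosome showed the reverse. Many of the genotype differences are therefore also given without these 4 libraries. The mean log2 CPM of the epithelial markers lay between 10.4 and 11.1 per library, although single markers varied more, Vil1 3.06-fold and Lyz1, the lysozyme of Paneth cells, 12.3-fold between libraries. Lyz1 had a log2 fold change of 0.97 ± 0.40 (SE) in Slfn3KO over both sexes, and of 0.68 ± 0.49 (SE) without these 4 libraries. The bile acid transporter subunits and other markers of the distal ileum had a mean log2 CPM of 8.41 to 9.83.

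Compared per length, as RPKM, which is the CPM divided by the exon length in kilobases, the regulators stood highest. Median levels over the 16 libraries were 37.0 RPKM for Igtp, 21.02 for Irgm2, 12.9 for Irgm1 and 11.04 for Gbp2. Below them followed Gbp7 at 3.29, Iigp1 at 2.55, Gbp3 at 1.58, Gbp9 at 1.11, Gbp6 at 0.918 and Tgtp2 at 0.313 RPKM. Igtp lay above Irgm2, Gbp2 above Gbp7 and Gbp6 above Tgtp2 in 16 of 16 libraries. The neighbours Irgm1 and Gbp2 kept their order in 11 of 16 libraries and Iigp1 and Gbp3 in 10 of 16, so their order was not beyond the spread between mice.

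Of the guanylate-binding proteins, Gbp7 (ENSMUSG00000040253, chr3:142530342-142550149 of mm10), Gbp3 (ENSMUSG00000028268, chr3:142560026-142573209) and Gbp2 (ENSMUSG00000028270, chr3:142620602-142638008) follow each other on the plus strand. Gbp2, which gathers on the vacuoles of Toxoplasma, had 29.5, 8.00, 42.1 and 23.4 CPM in female WT libraries 1 to 4 and 16.0, 27.1, 40.3 and 26.9 CPM in female Slfn3KO libraries 1 to 4. In males it had 41.1, 28.5, 67.3 and 19.9 CPM in WT and 3.82, 29.4, 29.5 and 26.0 CPM in Slfn3KO. The groups overlapped in both sexes, and 3 of the 4 Slfn3KO males lay within the range of the WT males. Gbp7, a partner in the assembly of the phagocyte oxidase, ran from 3.93 CPM in male Slfn3KO 1 to 31.0 CPM in male WT 3, and the means were 24.2 ± 5.49 CPM in WT males and 13.7 ± 6.66 CPM in Slfn3KO males (SD, n = 4 each). Gbp3 ran from 1.59 CPM in male Slfn3KO 1 to 18.5 CPM in female WT 3.

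Gbp9 (ENSMUSG00000029298, chr5:105077630-105139539) and Gbp6 (ENSMUSG00000104713, chr5:105270702-105293698) lie on the minus strand of chromosome 5. In the annotation Gbp9 overlaps Gbp8 and Gbp4 on the same strand, so reads in shared exons could have been lost. Gbp9 had 5.63, 3.30, 20.6 and 10.4 CPM in female WT, 3.48, 5.07, 9.71 and 5.06 CPM in female Slfn3KO, 6.34, 4.59, 21.2 and 8.81 CPM in male WT and 2.56, 4.84, 8.02 and 5.89 CPM in male Slfn3KO libraries 1 to 4. The highest values were those of WT library 3 in both sexes and then female WT 4, which are libraries whose sex transcripts went against the label. Gbp6 ran from 1.66 CPM in male Slfn3KO 1 to 15.9 CPM in female Slfn3KO 3. Its level is uncertain, since 70.7% of the 50-base stretches in its annotated transcripts also occur in transcripts of other genes, chiefly Gm43302 and Gbp10, and reads were 50 bases long.

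Of the regulators, Irgm1 (ENSMUSG00000046879, chr11:48861968-48871683, minus strand) had 62.2, 43.3, 137 and 52.2 CPM in female WT, 73.9, 98.1, 117 and 77.5 CPM in female Slfn3KO, 106, 87.5, 112 and 75.8 CPM in male WT and 33.4, 65.9, 69.6 and 55.7 CPM in male Slfn3KO libraries 1 to 4. All 4 Slfn3KO males were below all 4 WT males, and in females 3 of the 4 WT libraries were below all 4 Slfn3KO libraries while female WT 3 was above them. The highest and lowest of the WT males, male WT 3 and 4, had sex transcripts that went against the label. Female WT 4, whose sex transcripts also went against the label, had 52.2 CPM, which lay inside the range of the Slfn3KO males. With the groups as labelled, Irgm1 was the only member without overlap of the genotypes, in males. There, 1.23% of the 14124 genes tested had all Slfn3KO libraries below all WT libraries. It shared 0.379% of its 50-base stretches with other genes, the lowest share among the members.

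Igtp (ENSMUSG00000078853, chr11:58199556-58207591) and Irgm2 (ENSMUSG00000069874, chr11:58199618-58222779) lie on the plus strand and overlap, so reads in shared exons could have been lost to both. Igtp had 105, 24.1, 116 and 58.6 CPM in female WT, 43.9, 74.3, 133 and 75.3 CPM in female Slfn3KO, 130, 85.6, 97.1 and 62.6 CPM in male WT and 12.6, 82.7, 72.4 and 63.9 CPM in male Slfn3KO libraries 1 to 4. Apart from the low value of male Slfn3KO 1, the Slfn3KO males lay inside the range of the WT males. Irgm2 followed the same order of libraries at its ends, with 24.9 CPM in female WT 2, 15.5 CPM in male Slfn3KO 1 and 118 CPM in female Slfn3KO 3.

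Of the effectors, Iigp1 (ENSMUSG00000054072, chromosome 18 from 60376029 to 60392627, plus strand) had 3.67, 2.29, 17.8 and 5.70 CPM in female WT, 8.99, 15.6, 13.4 and 10.1 CPM in female Slfn3KO, 11.9, 6.94, 20.9 and 6.24 CPM in male WT and 1.37, 6.43, 9.39 and 3.90 CPM in male Slfn3KO libraries 1 to 4. Female Slfn3KO libraries were all above 3 of the 4 female WT libraries, and female WT 3 was above them all. Tgtp2 (ENSMUSG00000078921, chr11:49057194-49064206, minus strand) was the scarcest member, with 3 to 70 counts per library and 0.127 CPM in female WT 2 to 2.38 CPM in male WT 3. It shared 86.6% of its 50-base stretches with other genes, chiefly its near copy Tgtp1, so its values are uncertain.

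**Figure D2:**
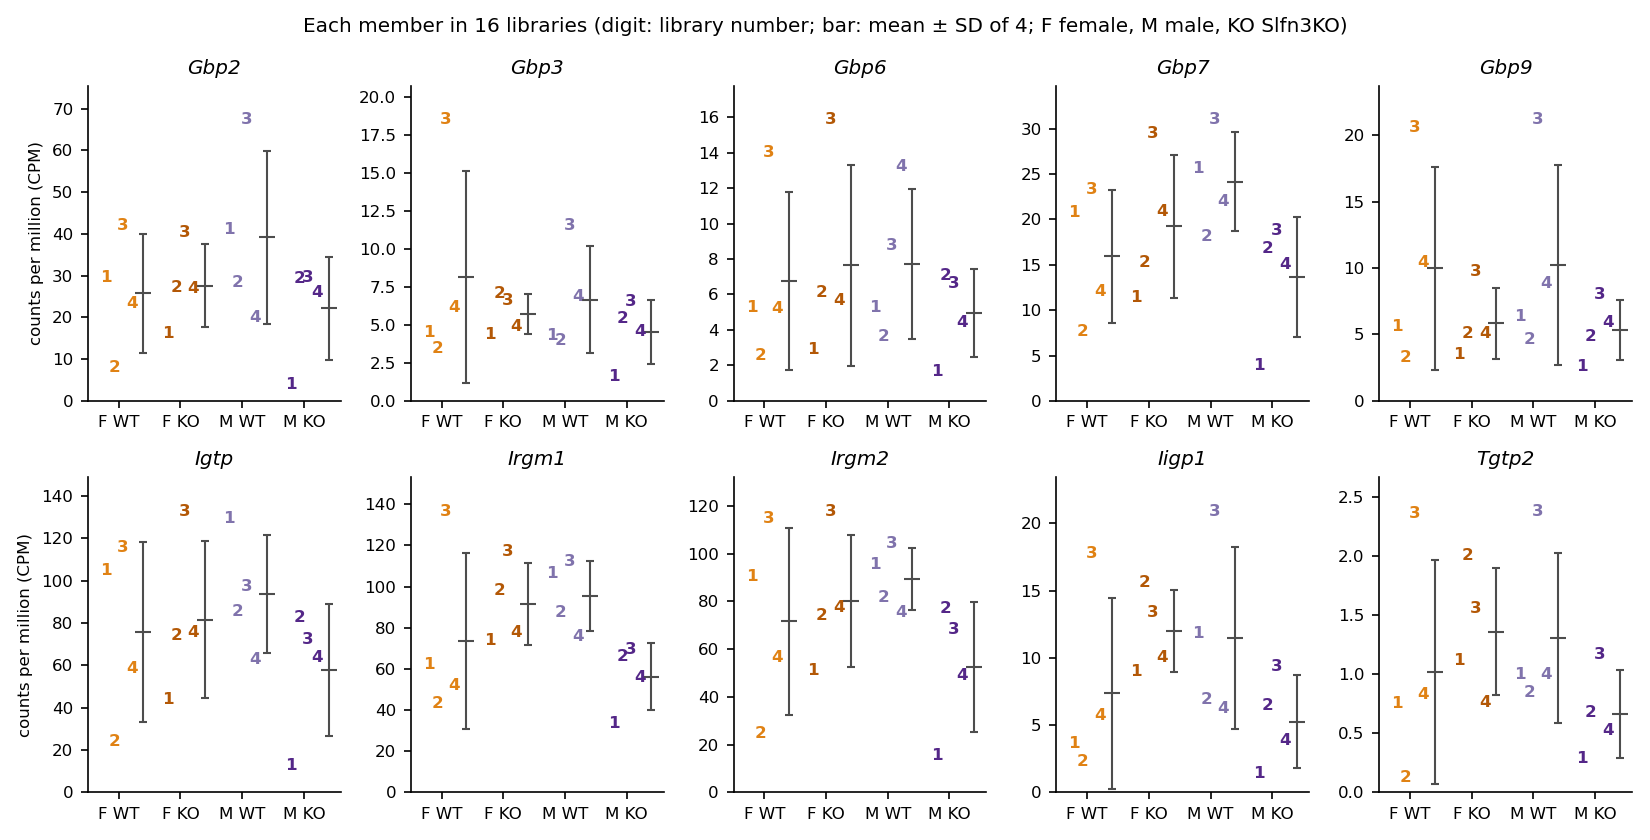
CPM (y axis, from 0) of the 10 members in the 4 groups (x axis), with each digit marking the library of that number and bars the mean ± SD of 4 libraries. Female WT 2 and male Slfn3KO 1 lay at the bottom in every panel. In Irgm1 the 4 libraries labelled male Slfn3KO, up to 69.6 CPM, lay below the 4 labelled male WT, from 75.8 CPM.

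The members ordered the libraries alike. Female WT 2 and male Slfn3KO 1 were the 2 lowest libraries for all 10 members, male Slfn3KO 1 being the lowest for 9 of them. The highest library was male WT 3 for 5 members, female Slfn3KO 3 for 3 and female WT 3 for 2. Between the lowest and the highest library the level differed 4.09-fold for Irgm1 and up to 17.6-fold for Gbp2, with Tgtp2 left out because its lowest library held only 3 counts. Within groups the SD of the log2 CPM was between 0.48 for Irgm1 and 0.996 for Gbp2, where the median over all tested genes was 0.30, and between 71.3% and 93.7% of tested genes had a smaller SD than a given member. Over the 45 pairs of members, Pearson's r of the log2 CPM across 16 libraries was between 0.635 and 0.977 with a median of 0.797, and after the group means were taken out it was between 0.629 and 0.977 with a median of 0.809. These libraries share the mice and the 4 WT libraries with conflicting labels.

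In both sexes together, with the sex label as a covariate, the estimates of all 10 members were lower in Slfn3KO than in WT. The log2 fold changes lay between -0.86 and -0.21 with a median of -0.29, and over the 14822 genes tested the median was -0.0037 and 50.7% of the estimates were negative. Gbp9 had the largest change, with means of 10.1 ± 7.01 CPM in WT and 5.58 ± 2.32 CPM in Slfn3KO (SD, n = 8 each) and a log2 fold change of -0.86 ± 0.39 (SE). By the quasi-likelihood test of edgeR, with p-values adjusted by Benjamini-Hochberg, 0 of 10 members passed an adjusted p under 0.05 with a change of at least 1.5-fold, as did 0% of all genes, and the adjusted p of Gbp9 was 0.406. The unadjusted p of Gbp9 was 0.0445 in that test. At an unadjusted p under 0.05 it was the 1 of 10 members called, where 11.9% of all genes were, and DESeq2 also called 0 members after adjustment. That unadjusted call was lost in 9 of the 16 fits with 1 library left out, namely without female WT 3 or 4, male WT 3, or library 1, 2 or 4 of the Slfn3KO mice of either sex. Without WT libraries 3 and 4 the estimate of Gbp9 was 0.17, and 5 of the 10 members then had a positive estimate.

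In males the estimates were lower in Slfn3KO for all 10 members, with log2 fold changes from -1.13 in Iigp1 to -0.57 in Gbp3 and a median of -0.80, where 50.4% of the 14124 genes tested had negative estimates. Irgm1 had means of 95.4 ± 16.8 CPM in WT and 56.2 ± 16.3 CPM in Slfn3KO males (SD, n = 4 each), a log2 fold change of -0.77 ± 0.23 (SE). By edgeR's quasi-likelihood test across all genes its unadjusted p was 0.00982 and its Benjamini-Hochberg adjusted p 0.925, so no member passed, as no gene did (0%). At an unadjusted p under 0.05, 1 of 10 members was called where 3.84% of all genes were. The replicate number of the titles was also used as a block in males, a choice made from these same data. Irgm1, Tgtp2 and Gbp9 were then called at an unadjusted p under 0.05, where 6.63% of all genes were. Their p-values by edgeR were 0.0116, 0.0203 and 0.0305, and the lowest adjusted p among them was 0.743. The sign in males did not rest on male Slfn3KO 1 alone, since without that library all 10 estimates stayed negative, from -0.81 in Iigp1 to -0.29 in Gbp3, and that of Irgm1 was -0.59. Without WT libraries 3 and 4 the estimate of Irgm1 was -0.78, while those of Gbp3 and Gbp6 turned to 0.13 and 0.16.

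Markers of T and NK cells also had lower estimates in males. Their mean log2 CPM was 3.53 to 4.24 in the WT and 2.43 to 3.70 in the Slfn3KO males. Of the 11 markers tested, 11 had lower estimates in Slfn3KO. Of these, 1 was at an unadjusted p under 0.05, where 3.84% of all genes were, and 0 passed after edgeR's adjustment. The median log2 fold change of the T and NK cell markers in males was -0.53, and -0.16 without WT libraries 3 and 4. All 11 markers tested in females were lower too, with a median of -0.44, where 8 of the 10 members had higher estimates. That female median was -0.53 without WT libraries 3 and 4, where all 10 members had higher estimates. In males all 10 B cell and follicle markers also had lower estimates, with a median of -2.37 that was 3.604 without those libraries. All 23 antiviral genes of the type I interferon response had lower male estimates as well, with a median of -0.97, and of -0.48 without them. Of the 12 markers on the list Ncr1 alone was at 0 counts in any library, in 2 of the 16. The part of these cells in the result was not tested, and in RNA of whole mucosa fewer cells of a type and less RNA per cell cannot be told apart.

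In females the signs were mixed. Iigp1 was highest in Slfn3KO relative to WT, with means of 7.36 ± 7.09 CPM in WT and 12.01 ± 3.04 CPM in Slfn3KO (SD, n = 4 each) and a log2 fold change of 0.71 ± 0.57 (SE). Gbp9 and Gbp3 had estimates of -0.77 and -0.51, and the other members had estimates from 0.10 in Gbp2 to 0.71, so that the median of the 10 was 0.17. By edgeR's quasi-likelihood test 0 of 10 members were called after adjustment, as were 0% of all genes, and 0 of 10 at an unadjusted p under 0.05, where 17.1% of the 14064 genes were. DESeq2 called 0 members in males and in females. Without WT libraries 3 and 4 all 10 estimates were positive, from 0.34 in Igtp to 2.01 ± 0.33 (SE) in Iigp1. The unadjusted p by edgeR was then 0.000518 for Iigp1 and 0.0154 for Irgm1. These were the 2 of 10 members under 0.05, where 24% of all genes were. Neither passed after adjustment, as no gene did (0%), and the lowest adjusted p, that of Iigp1, was 0.109. This leaves only female WT 1 and 2 as controls.

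The difference between the sexes was tested as the interaction of sex label and genotype, female minus male. It was positive for all 10 members, from 0.05 in Gbp3 and 0.17 in Gbp9 to 1.83 ± 0.88 (SE) in Iigp1, where 49.3% of all genes tested had negative values. By edgeR's quasi-likelihood test the unadjusted p was 0.0304 for Irgm1, with a difference of 1.08 ± 0.45 (SE), and 0.0564 for Iigp1. Adjusted by Benjamini-Hochberg these were 0.441 and 0.461, so 0 of 10 members passed, as did 0% of genes, and by DESeq2 0 members passed too. At an unadjusted p under 0.05, 1 of 10 members was called where 11.1% of genes were. That call of Irgm1 was lost in 9 of the 16 fits with 1 library left out, namely without female WT 1, 2 or 4, female Slfn3KO 2 or 3, male WT 1 or 3, or male Slfn3KO 1 or 4. Without female WT 3 it was kept. Without WT libraries 3 and 4 the differences were 1.58 in Irgm1, 2.84 in Iigp1 and 2.11 in Tgtp2, with adjusted p-values from edgeR of 0.0550, 0.0689 and 0.170, and again 0 of 10 members passed, where 2.38% of all genes did. At an unadjusted p under 0.05 those 3 of 10 were called where 26.9% of genes were. WT libraries 3 and 4 of each sex label had the sex transcripts of the other sex. A difference between the sexes and the placing of these libraries therefore cannot be told apart.

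**Figure D3:**
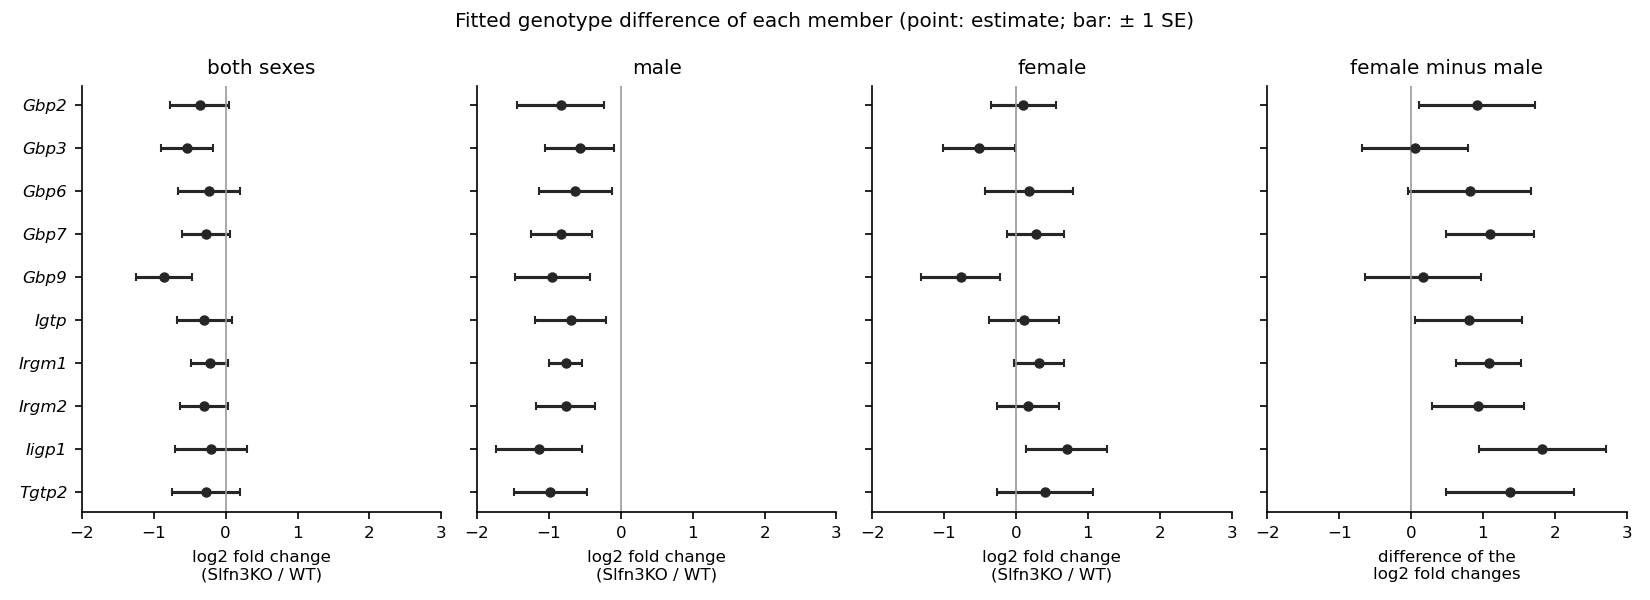
Fitted log2 fold change of Slfn3KO against WT (x axis) for each member (y axis) in both sexes, in males and in females, and the difference of the changes between females and males; points are estimates and bars ± 1 SE. All 10 points are left of 0 in males and all 10 are right of 0 in the last panel, where Gbp3 at 0.05 and Gbp9 at 0.17 lie close to it.

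The signal upstream of the members was examined from the ligand down. Ifng itself was at the edge of detection, with 0 to 33 counts per library, and its 0 counts in female WT 2 and male Slfn3KO 1 allow up to 0.127 and 0.108 CPM on the scaled CPM used here. These are the libraries in which all members were lowest. Ifng had 1.10, 0.631, 0.646 and 0.166 CPM in WT males and 0, 0.516, 0.353 and 0.38 CPM in Slfn3KO males, so the groups overlapped, and in both sexes together its log2 fold change was -0.28 ± 0.63 (SE). Of 7 tested genes that make or drive Ifng, 0 passed the adjusted test by edgeR. Il18, a cytokine that prompts T and NK cells to release Ifng, had an unadjusted p of 0.0473 by edgeR and a change of -0.39 ± 0.18 (SE), which was -0.33 ± 0.21 (SE) and not called without WT libraries 3 and 4. Tbx21, a factor that drives Ifng in T cells, was at -0.43 ± 0.25 (SE). The receptor chains were at 186 to 287 CPM (Ifngr1) and 188 to 315 CPM (Ifngr2), with changes of -0.07 and -0.03.

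Of the 12 genes of the receptor and its signalling, 0 passed the adjusted test by edgeR. At an unadjusted p under 0.05, where 11.9% of all genes were called, 3 of the 12 were. These were Ptpn6, a phosphatase found mainly in blood cells, at -0.82 ± 0.28 (SE), Jak1 at -0.23 ± 0.10 (SE), and Ptpn2, a phosphatase that turns the pathway down, at 0.18 ± 0.08 (SE). Jak2 was at -0.18 ± 0.14 (SE). When WT libraries 3 and 4 were left out, the estimates were -0.06 ± 0.18 (SE) for Ptpn6 and -0.11 ± 0.13 (SE) for Jak1, neither of them called, and 0.22 ± 0.09 (SE) for Ptpn2, the 1 gene of the list still called. Irf1, at 184 to 523 CPM, and Socs1, an inhibitor of the Jak kinases, at 4.07 to 17.3 CPM, had changes of -0.14 and -0.22, and male Slfn3KO 1 and female WT 2 were again the lowest for Irf1 and Socs1.

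Among 30 other targets of interferon-gamma, 26 had lower estimates in Slfn3KO over both sexes, with a median of -0.19, and 0 were called before or after adjustment by edgeR. H2-D1, an MHC class I gene, at -0.29 ± 0.17 (SE), and Cd274, which encodes the checkpoint ligand PD-L1, at -0.62 ± 0.39 (SE), had the smallest p-values of that list. Of 11 other interferon-induced GTPases tested, 9 had lower estimates with a median of -0.17. The ones called at an unadjusted p under 0.05 were 9930111J21Rik1 at -2.14 ± 0.75 (SE) and 9930111J21Rik2 at -1.81 ± 0.60 (SE), which had at most 46 and 120 counts in a library. Gbp5, an activator of inflammasomes, was at -0.51 ± 0.37 (SE), Gbp4 at -0.47 ± 0.32 (SE), Gm12250 at -0.49 ± 0.41 (SE), Ifi47 at -0.17 ± 0.29 (SE) and Gbp8 at -0.08 ± 0.35 (SE). The remaining ones were Gbp2b at -0.14, Irgq at -0.14, Tgtp1 at 0.14 and Gm12185 at 0.15. When WT libraries 3 and 4 were left out, 0 of the 10 then tested were called, 6 had higher estimates and the median was 0.09. The estimate of 9930111J21Rik2 was then 0.21 ± 0.44 (SE), that of Gbp5 was 0.17 ± 0.32 (SE) and that of Gbp4 -0.03 ± 0.36 (SE), and 9930111J21Rik1 no longer passed the filter on low counts. Gbp8 was then at 0.44 ± 0.43 (SE), Tgtp1 at 0.41 ± 0.50 (SE) and Gbp2b at 0.02 ± 0.19 (SE). Of 11 genes of the autophagy machinery, which places these GTPases on membranes, 6 had higher and 5 lower estimates with a median of 0.00 (8 lower and a median of -0.09 without WT libraries 3 and 4), and Sqstm1, at -0.19 ± 0.15 (SE), and Gabarapl2, at -0.11 ± 0.10 (SE), had the smallest p-values.

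The antiviral genes of the type I interferon response had larger estimates. All 23 had lower estimates in Slfn3KO over both sexes, with a median of -1.01. At an unadjusted p under 0.05 by edgeR, 21 of 23 were called, where 11.9% of all genes and 1 of 10 members were. Xaf1, at -1.52 ± 0.29 (SE), and Mx2, a GTPase that blocks viruses, at -1.40 ± 0.29 (SE), had the smallest p-values of the list. None passed the adjusted test by edgeR, and DESeq2 passed 4 of them and 0 members. Without WT libraries 3 and 4 the median of the 23 was -0.53. In that fit 6 were called at an unadjusted p under 0.05, where 5.8% of all genes were. B cell and follicle markers had estimates of the same sign over both sexes, with 10 of 10 lower and a median of -3.01. At an unadjusted p under 0.05 by edgeR 9 of the 10 were called, again beside 11.9% of all genes. The median of these markers was 0.08 without WT libraries 3 and 4. Cr2 was the 1 marker of that list at 0 counts in any library, in 2 of the 16, and the part of these cells in the result was not tested.

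Levels of the members went with Ifng from library to library. Over 16 libraries Pearson's r of the log2 CPM was between 0.51 for Gbp9 and 0.874 for Igtp, and Spearman's rho was between 0.343 and 0.84. The permutation p, adjusted by Benjamini-Hochberg over the 40 relations computed, was under 0.05 for 9 members by r and 7 by rho, the largest being 0.054 and 0.23. Without female WT 2 and male Slfn3KO 1, the libraries farthest from the median of Ifng, r was between 0.029 for Gbp6 and 0.614 for Igtp, and it was lower than over all libraries for all 10 members. It was 0.081 for Gbp3, 0.152 for Gbp9, 0.302 for Gbp7, 0.359 for Tgtp2 and 0.372 for Iigp1, so much of the relation of these members and Gbp6 rested on those libraries. Within genotypes r was 0.278 to 0.932 in WT and 0.702 to 0.89 in Slfn3KO. Counts of Ifng were few, so its level in a single library was imprecise.

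The members also went with the mean log2 CPM of the T and NK cell markers, which was between 2.36 in female WT 2 and 4.38 in female WT 1. Pearson's r was between 0.505 for Iigp1 and 0.849 for Igtp and rho between 0.353 and 0.818, with an adjusted permutation p under 0.05 for 9 members by r and 6 by rho. Without female WT 2 and male Slfn3KO 1, r was between -0.031 for Iigp1 and 0.718 for Igtp, and again lower for all 10 members. It was 0.106 for Tgtp2, 0.204 for Irgm1 and 0.335 for Gbp3, so much of the relation of these members and Iigp1 rested on those libraries. It was 0.489 to 0.896 within WT and 0.309 to 0.883 within Slfn3KO.

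**Figure D4:**
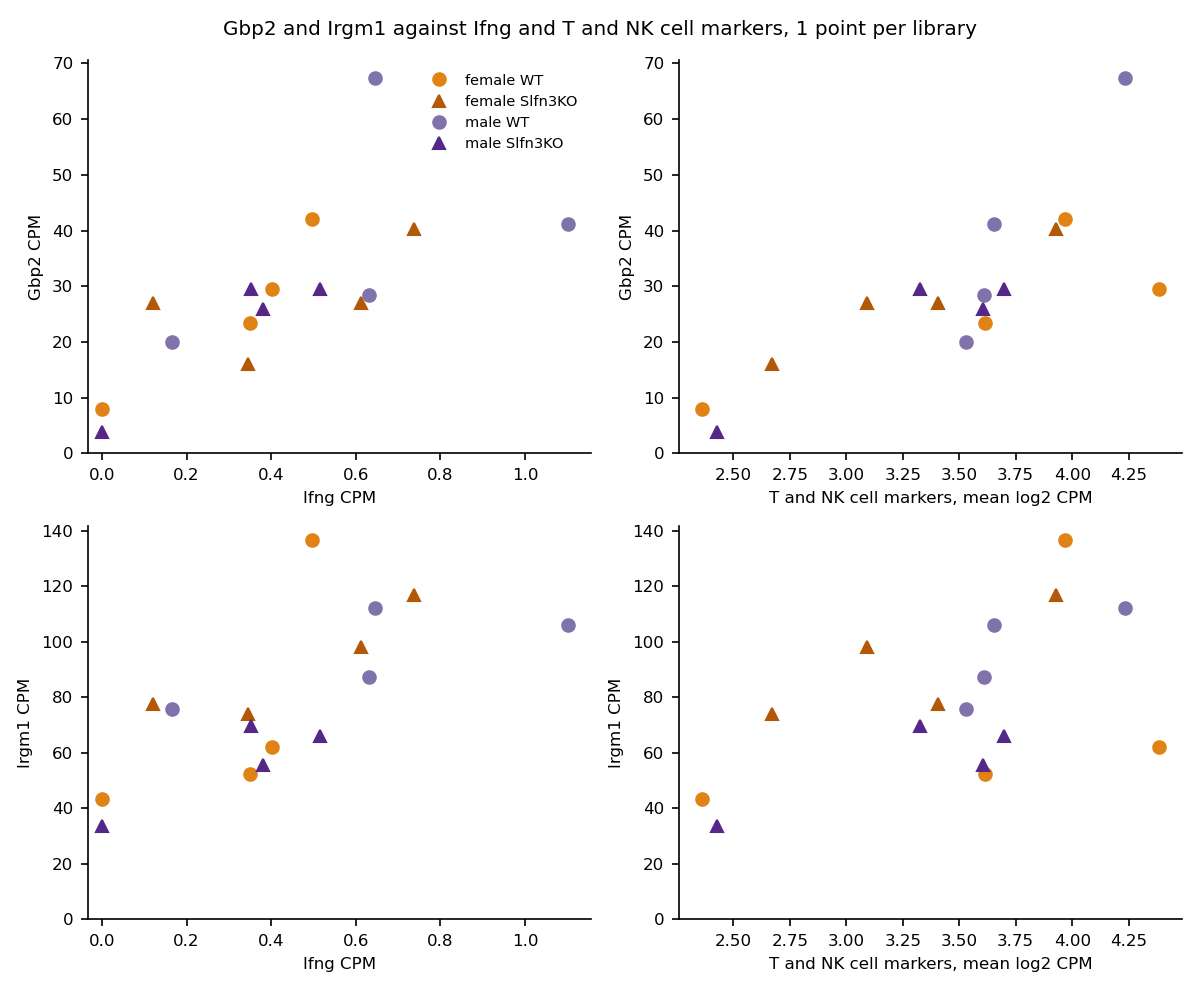
Gbp2 and Irgm1 (y axes, CPM) against Ifng (x axis, CPM) and the mean of the T and NK cell markers (x axis, log2 CPM), 1 point per library, with circles for WT and triangles for Slfn3KO. The libraries with 0 counts of Ifng, female WT 2 and male Slfn3KO 1, also had the lowest marker means (2.36 and 2.43) and the lowest Gbp2 (8.00 and 3.82 CPM) and Irgm1 (43.3 and 33.4 CPM).

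With B cell and follicle markers, whose mean log2 CPM spanned -2.18 to 6.12 over the libraries, r was between 0.15 for Igtp and 0.735 for Gbp9 and rho between -0.047 and 0.706. Only Gbp9 (r = 0.735, adjusted permutation p = 0.0022) and Gbp3 (r = 0.637, adjusted permutation p = 0.0077) were under 0.05. Without female WT 4 and male WT 3 these were 0.621 and 0.593. Gbp9 and Gbp3 were also the members with negative estimates in females, where the markers were at 0.56 to 5.54 in WT and -0.85 to 2.07 in Slfn3KO. Without WT libraries 3 and 4 all 10 members, Gbp9 and Gbp3 among them, had positive estimates in females. All 10 markers stayed lower in that fit, with a median of -1.62. The part of follicle tissue in these values was not tested.

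**Figure D5:**
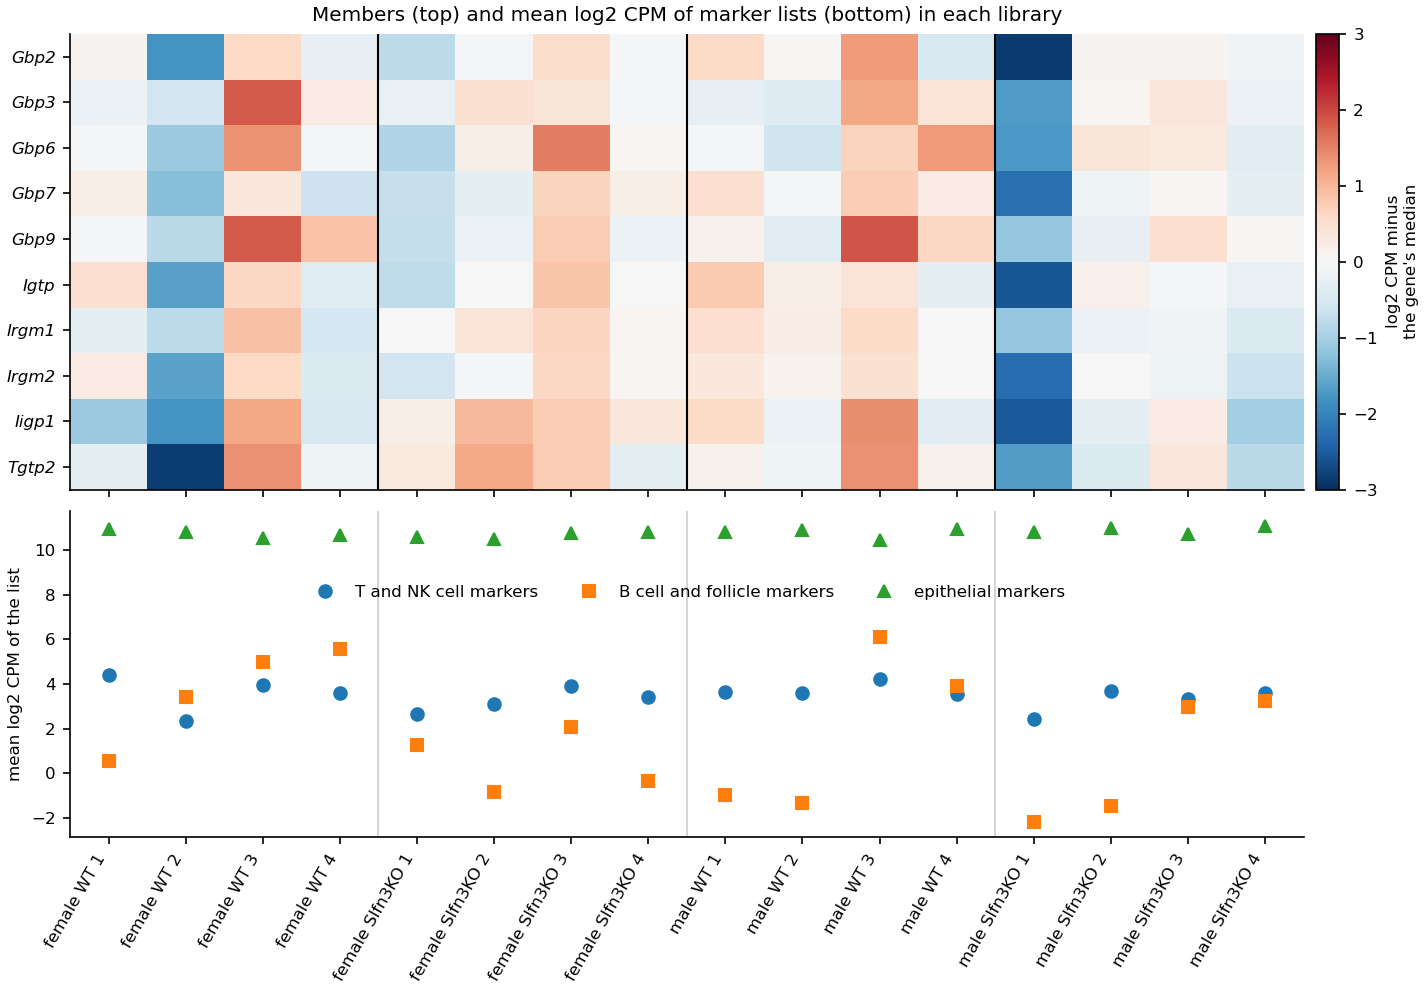
Top, log2 CPM of each member minus its median over the 16 libraries (red above, blue below the median). Bottom, mean log2 CPM of 3 marker lists in the same libraries: the T and NK cell score was lowest in female WT 2 (2.36) and male Slfn3KO 1 (2.43), where the members were blue, the B cell and follicle score ran from -2.18 to 6.12, and the epithelial score stayed between 10.4 and 11.1.

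Among the 10 genes outside the members whose log2 CPM over the 16 libraries was most like the members' mean profile were Gbp4 (r = 0.963), Gm12250 (0.948), Nlrc5 (0.939), Gbp8 (0.937), Ifi47 (0.917), Trim21 (0.917), Ifit1bl1 (0.915), Cxcl9 (0.912) and Slfn5 (0.910). Gbp4, Gbp8, Gm12250 and Ifi47 are GTPases of the same families, Nlrc5 drives expression of MHC class I genes, and Cxcl9 is a chemokine for T cells. Slfn5 is a relative of the deleted gene, and it ran from 0.721 to 23.5 CPM with a log2 fold change of -0.68 in both sexes, and of 0.53 without WT libraries 3 and 4. Ifit1bl1 ran from 27.8 to 504 CPM.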

How the data were processed

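RNA of ileum mucosa was measured in 16 libraries, 4 for each sex label and genotype, and samples were grouped by their titles. The authors trimmed single reads of 50 bases with cutadapt, aligned them to mm10 with STAR and deposited raw counts per gene and the exon length of each gene, without normalization. Per the file header the counts came from featureCounts with strand-specific counting (version 1.4.6 in the submitters' processing notes), whereas the methods of the study name HTSeq. The annotation release was not given in the sources used here, and symbols came from GENCODE M21, which matched 45143 of 46078 identifiers.

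Counts were scaled to CPM with TMM factors and tested with the robust quasi-likelihood F test of edgeR 4.0.16 (R 4.3.3) after the filterByExpr filter. The p-values were adjusted by Benjamini-Hochberg over all genes tested, and a call needed an adjusted p under 0.05 and 1.5-fold. The study used DESeq2, which was an alternative here (version 1.42.0). The log2 CPM of scores and correlations had a prior count of 2. Correlations were tested two-sided with 100000 permutations. Total counts ranged from 20823279 to 30813117, and a floor of 3 counts was used. Nothing in the labels names separate litters or days, so neither could enter the fits. The p-values measure the spread between these mice and treat each mouse as independent, although the study describes WT and Slfn3KO mice as littermates.

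The members, gene lists and tests were chosen with earlier results of these data known. Named were all members, the main genes of the signalling chain (Ifng, Ifngr1, Ifngr2, Jak1, Jak2, Irf1 and Socs1), every other GTPase tested, the 2 genes with the smallest p of other lists and the 10 genes most like the members' mean profile. Results of 1 gene under this rule, with 10 of the 40 relations, are not reported here. Replicate numbers come from the titles, and same-numbered libraries deviated together in males (correlation of deviations 0.138 to 0.518 in 4 of 4 pairs), so that the block was used beside the main result there. Male pairs of unlike number ran from -0.395 to 0.232, which overlaps that range. The block was thus chosen from these same data, and WT libraries 3 and 4 are among its pairs. No library pair of a group agreed within sampling noise. The fits and the permutation test were tested on simulated data. The alternatives were RLE factors, DESeq2, other filters, an unadjusted p, the block, no covariate, all 4 groups in one fit, each library left out and WT libraries 3 and 4 left out. Promoter windows came from RefSeq on GRCm38.p6. Shared 50-base stretches were counted in GENCODE M21 transcripts.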

Additional observations from a re-analysis of the deposited data

Results flagged for a closer look

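Gbp2 in male Slfn3KO 1, at 3.82 CPM, lay far below the other 3 libraries of its group. Tgtp2 in male WT 3, at 2.38 CPM, lay far above the other 3 of its group. In 40 combinations of member and group these 2 stood apart by Dixon's ratio at the 95% level, and chance gives about 1 in 20, which is 2 of 40. Neither library was left out of the fits for that reason. Tgtp2 shares most of its sequence with Tgtp1.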

How the results depend on the processing

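No member passed the adjusted threshold under any alternative run. At an unadjusted p under 0.05 with 1.5-fold, 1 member passed in both sexes (Gbp9), 1 in males (Irgm1) and 1 for the interaction (Irgm1), and the count of genes was 984 in both sexes, 272 in males, 1366 in females and 946 for the interaction, each from 0. DESeq2 called 54, 14, 506 and 19 genes in the same order, and leaving out WT libraries 3 and 4 gave 359 for the interaction. Leaving those libraries out turned the log2 fold change in both sexes to 0.32 in Gbp3, 0.54 in Gbp6, 0.17 in Gbp9, 0.34 in Iigp1 and 0.44 in Tgtp2, in males to 0.13 in Gbp3 and 0.16 in Gbp6, and in females to 0.51 in Gbp3 and 0.38 in Gbp9; the cause was not tested. With each library left out in turn, the estimates in both sexes ran from -0.56 to 0.013 in Gbp6, from -0.45 to 0.070 in Iigp1 and from -0.52 to 0.00040 in Tgtp2, with the upper end in each without female WT 3. In females they ran from -0.20 to 0.44 in Gbp2, from -0.77 to 0.28 in Gbp3, from -0.46 to 0.81 in Gbp6, from -0.0087 to 0.51 in Gbp7, from -0.23 to 0.38 in Igtp and from -0.12 to 0.48 in Irgm2, with the ends set by female WT 2, female WT 3 or female Slfn3KO 3. For the interaction they ran from -0.35 to 0.85 in Gbp3 and from -0.47 to 0.80 in Gbp9, with the ends set by WT library 3 of each sex. In males all 80 estimates with a library left out kept their sign. With the replicate block, which in both sexes rests only on a number in the titles, the sign of every member was kept in each comparison. In females (correlation of deviations -0.362 to 0.143) the block gave 0 members at an unadjusted p under 0.05, as the fit without it did. RLE factors moved no library's scale by more than 3.12% and reversed no estimate. Requiring 10 counts in every library dropped Tgtp2. With 3 to 70 counts per library, Tgtp2 is the member that depth limits most.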
